A study of Mus musculus with 4 samples.

Results

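The genes described here carry fructose into the liver cell and into glycolysis, together with ChREBP, the carbohydrate-sensing transcription factor, and its classic target. They were taken by symbol from the count table: Slc2a2, Slc2a5, Khk, Tkfc, Glyctk, Mlxipl and Pklr, 7 of 22155 symbols. All 7 were in the table and all 7 passed the filter on low counts, which left 13309 genes. They were chosen with the difference between the 2 groups of mice in view, so their fold changes are given as a description, without a p-value. Messenger RNA was sequenced from whole liver of wild-type C57BL/6 mice, an inbred strain, aged 8 to 10 weeks. All mice drank the Lieber-DeCarli liquid diet with 5% ethanol for 10 days, so the comparison group was also fed ethanol and no ethanol-free group was analysed here. The gavage group also received a binge of 5 g ethanol per kg body weight into the stomach, with livers collected 9 h later. There were 2 libraries in each group. The labels do not say whether these came from separate animals, so the spread within a group may be technical, and they give no sex and no control gavage.

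Hepatocytes take up fructose and glucose through facilitative transporters of the Slc2a family. Ketohexokinase phosphorylates fructose, the product is split into dihydroxyacetone phosphate and glyceraldehyde, and triokinase phosphorylates the glyceraldehyde so that it can join glycolysis, while glycerate kinase serves a side route through glycerate. ChREBP pairs with the protein Mlx, responds to phosphorylated sugars, and binds a carbohydrate response element (ChoRE), which is built from a pair of E-box-like sites, in genes of glycolysis and fat synthesis. The liver pyruvate kinase gene Pklr is the gene in which this element is best known.

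The promoter of Pklr is shown first because it holds that element. The windows come from RefSeq (GRCm38.p6), span 250 bases before to 50 bases after a transcription start, and were found for all 7 genes (9 windows, since Pklr and Mlxipl have 2 starts each). The ChoRE consensus has 17 positions, of which 10 are constrained, some to 1 base and some to either of 2, while the others take any base. It reads the same on both strands, so matches on either strand were found. It was present without mismatch in 39 of 32851 windows (0.119%), and among the 7 genes only in the window of the downstream start of Pklr. The start in that window lies 481 bases after the upstream one, and the element lies 170 to 154 bases before it. The E-box CACGTG, which reads the same on both strands, was present in 7.15% of all windows and in 2 of these 9. It lay 71 to 66 bases before the start of Khk, and 98 to 93 bases before the upstream start of Mlxipl, 17001 bases ahead of its other start. The stretches follow in 5′ to 3′ direction, all from the plus strand, with the ChoRE (Pklr) or the E-box (Khk, Mlxipl) in capitals.
Pklr promoter, chr3:89136373-89136672: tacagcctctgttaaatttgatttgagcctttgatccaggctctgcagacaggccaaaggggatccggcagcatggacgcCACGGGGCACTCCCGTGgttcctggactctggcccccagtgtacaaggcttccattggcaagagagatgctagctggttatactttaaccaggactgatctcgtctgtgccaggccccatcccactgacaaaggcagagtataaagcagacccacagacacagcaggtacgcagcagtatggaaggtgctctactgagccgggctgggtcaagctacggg
Khk E-box, chr5:30921458-30921523: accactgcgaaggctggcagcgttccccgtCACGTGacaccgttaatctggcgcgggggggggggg
Mlxipl E-box, chr5:135089762-135089827: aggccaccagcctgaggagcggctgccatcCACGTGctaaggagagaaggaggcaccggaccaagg
The windows of Tkfc, Glyctk, Slc2a2 and Slc2a5 held neither motif, nor did the other windows of Pklr and Mlxipl. Of the 21 genes in the ChREBP target list described below that had a window, 0 held the ChoRE without mismatch and 2 held CACGTG. An imperfect element, or one outside the window, was not counted. With up to 1 or 2 mismatches, 2.36% and 25.6% of all windows held a match. A match of letters describes the window and does not show binding.

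Total counts ran from 28791281 to 30347558 per library, and expression is given as CPM, the counts divided by library size after a composition correction. Hepatocyte markers were abundant throughout, with 12 of 12 tested and a summed level of 134700 to 174730 CPM. After the gavage 8 of them lay lower, 6 without overlap of the groups, and 4 higher, 2 without overlap. Transcripts of neighbouring tissues differed between libraries. The 9 pancreatic markers in the table summed to 1056 CPM in replicate 1 of ethanol alone and to 4.59 to 8.42 CPM in the other 3 libraries. The 7 skeletal muscle markers summed to 318 and 609 CPM in replicate 1 of ethanol alone and of the gavage group, against 13.9 and 4.75 CPM in the libraries numbered 2. The fat cell markers Adipoq and Plin1 had 5.53 and 2.38 CPM in the ethanol-alone library numbered 1 and 8.92 and 6.78 CPM in the gavage library numbered 1. In the libraries numbered 2, Plin1 had no count and Adipoq had at most 0.0664 CPM. The whole list of 10 fat markers summed to 6248 and 4266 CPM with ethanol alone and 1809 and 2147 CPM with the gavage, mostly through Pck1 and Car3, which liver also makes. All 12 Kupffer cell markers lay lower after the gavage without overlap of the groups, as did 27.2% of all tested genes. Their sums were 444 and 494 against 780.4 and 749.9 CPM. Lower values were not particular to this list, since hepatocyte markers also lay lower in part. The part of these tissues in the values below was not tested. In bulk liver, fewer cells of a type and less RNA per cell cannot be told apart.

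**Figure D1:**
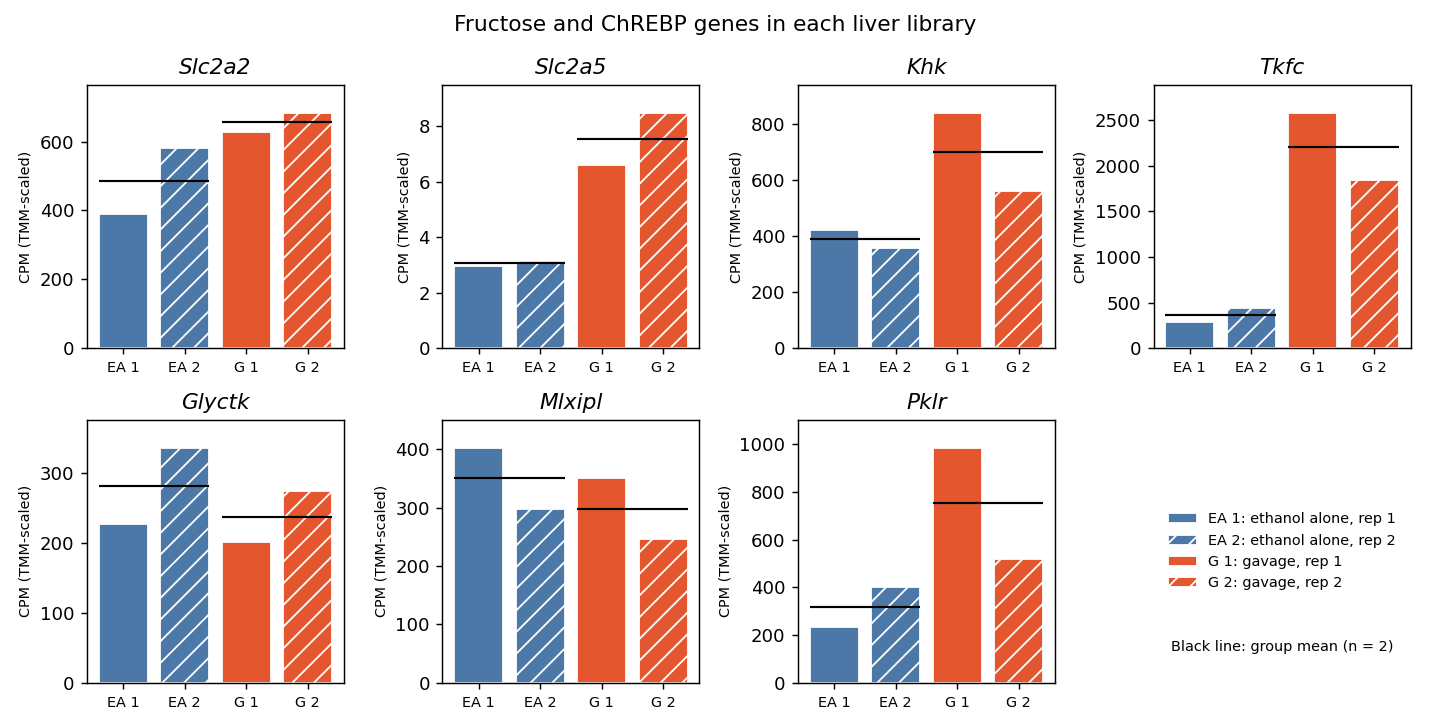
CPM of the 7 genes in each of the 4 liver libraries; each panel has its own axis from 0, blue bars are ethanol alone, orange bars are ethanol and gavage, hatched bars are replicate 2, and the black line is the group mean. The groups are apart for Slc2a2, Slc2a5, Khk, Tkfc and Pklr and overlap for Glyctk and Mlxipl; Tkfc has the widest gap.

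After the gavage, both libraries lay above both libraries of ethanol alone for 5 of the 7 genes, Slc2a2, Slc2a5, Khk, Tkfc and Pklr. Over all 13309 tested genes the groups lay apart in this direction for 27.5%, and since the genes were chosen on this difference nothing is read from the count. The plot of CPM by library shows that their sizes were unequal, from a 1.35-fold higher mean for Slc2a2 to 6.10-fold for Tkfc. Glyctk and Mlxipl had overlapping groups. The median log2 fold change of the 7 genes was 0.84, against 0.02 over all tested genes. Because of the same choice of genes, nothing is read from that gap either. Over the whole table, edgeR's quasi-likelihood test called 0 of 13309 genes (0%) after Benjamini-Hochberg adjustment, 2497 (18.8%) had an unadjusted p under 0.05, and DESeq2 called 1177 (8.84%).

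Slc2a2 (chromosome 3, 28697903 to 28731359, GRCm38) encodes GLUT2, the high-capacity glucose and fructose transporter of the hepatocyte membrane. With ethanol alone it had 389 CPM in replicate 1 and 581 CPM in replicate 2, and after the gavage 628 and 683 CPM in that order, which holds for all pairs of values below. The groups stood barely apart, the lower gavage library being 1.08-fold above the higher library of ethanol alone, and the log2 fold change was 0.44 (SE 0.28). That value was 0.15 without replicate 1 of ethanol alone, the library with pancreatic transcripts, and 0.70 without replicate 2. Slc2a5 (chromosome 4, 150119283 to 150144169) encodes GLUT5, a transporter specific for fructose that is best known from the small intestine. It had 81 and 95 counts with ethanol alone and 207 and 255 counts with the gavage. The 95% Poisson intervals, which cover counting error only, were 64.3 to 101 and 76.9 to 116 counts against 179.8 to 237 and 225 to 288 counts. These intervals overlapped within each group, and those of the gavage group did not meet those of ethanol alone. Since they leave out variation between libraries, they do not test the difference between the groups. In CPM this was 2.97 and 3.14 against 6.59 and 8.47, a log2 fold change of 1.30 (SE 0.25). Of 10 enterocyte markers, Lct, Sis, Cdx1, Cdx2 and Mep1a had no count in any library and Alpi had at most 0.0332 CPM. The other 4 were detected. Vil1 had 0.255 to 0.399 CPM, and Slc5a1, a sodium-coupled glucose transporter, was near the level of Slc2a5 at 2.09 and 3.20 against 6.50 and 2.59 CPM, with overlapping groups. Fabp2, a fatty acid binding protein, was lower after the gavage (149 and 69.9 against 36.3 and 59.2 CPM), and Apoa4, an apolipoprotein that liver also makes, was higher (728 and 656 against 1847 and 2570 CPM). The sum of the list was 879 and 729 against 1890 and 2633 CPM, and its part in the level of Slc2a5 was not tested. In both groups Slc2a5 was lower in replicate 1, the library with muscle and fat transcripts, than in replicate 2. The part of those tissues in its level was not tested.

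Khk (chromosome 5, 30921431 to 30931248) encodes ketohexokinase, which traps fructose as its phosphate. It had 421 and 359 CPM with ethanol alone and 839 and 560.1 CPM after the gavage. Both gavage libraries were higher, and they differed from each other 1.5-fold. The log2 fold change was 0.84 (SE 0.29), and 0.52 without replicate 1 of the gavage group. Tkfc (chromosome 19, 10587791 to 10605654) encodes triokinase, which phosphorylates glyceraldehyde and dihydroxyacetone and also forms cyclic FMN from FAD. It had 287 and 437 CPM with ethanol alone and 2578 and 1839.5 CPM after the gavage. The lower gavage library stood 4.21-fold above the higher library of ethanol alone, while replicates within a group differed 1.52-fold and 1.4-fold. Its log2 fold change of 2.61 (SE 0.35) lay at percentile 99.3 of all tested genes, a rank given as a description only. Leaving out each library in turn gave 2.31 to 2.89. Glyctk (chromosome 9, 106152857 to 106158138), the glycerate kinase of the side route, had 227 and 335 CPM with ethanol alone and 200.5 and 274 CPM after the gavage. Within each group replicate 2 was the higher library, and the groups overlapped. Its log2 fold change was -0.25 (SE 0.30), an approximate SE that covers 0, and 0.01 without replicate 2 of ethanol alone.

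Mlxipl (chromosome 5, 135089890 to 135138382) encodes ChREBP itself. It had 402 and 298 CPM with ethanol alone and 351 and 246 CPM after the gavage. In both groups replicate 1 was the higher, and the groups overlapped, with a log2 fold change of -0.23 (SE 0.29). It was -0.005 without replicate 2 of the gavage group and -0.51 without replicate 1. Counts per gene do not separate the long form of ChREBP from the short beta form, which begins at the upstream start. Pklr (chromosome 3, 89136142 to 89146784) encodes the liver and red cell pyruvate kinase, the last step of glycolysis, and its ChoRE-bearing start is the one known for liver. It had 235 and 403 CPM with ethanol alone and 986 and 519.9 CPM after the gavage. The groups lay apart by 1.29-fold at their nearest libraries, which is less than the spread within each group, 1.71-fold with ethanol alone and 1.90-fold after the gavage. The log2 fold change was 1.24 (SE 0.43), and 0.71 without replicate 1 of the gavage group. Pkm, the pyruvate kinase gene of muscle and most other tissues, had 21.7 and 12 CPM with ethanol alone and 24.9 and 11.2 CPM after the gavage. It was higher in the libraries with muscle transcripts in both groups and overlapped between groups (log2 fold change 0.10, SE 0.47).

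Some of these genes share exonic bases with a neighbour on the opposite strand, and the strand setting of the counting is not given in the sources used here. Hcn3 covers 22.0% of the exonic length of Pklr, and it had 1.10 and 1.06 CPM with ethanol alone and 3.50 and 1.63 CPM after the gavage. Ddb1 covers 7.10% of Tkfc and had 215 and 245 against 339 and 340.4 CPM, and Cyb561a3 covers 12.9% and had 6.24 to 8.33 CPM. Antisense transcripts, not analysed here, cover 52.1% of Glyctk and 4.24% of Mlxipl. Without strand, reads from such a pair cannot be told apart or may be lost. The levels are uncertain by an amount that these shares, which count bases and not reads, do not measure. No exon of another annotated gene overlapped Khk, Slc2a2 or Slc2a5.

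**Figure D2:**
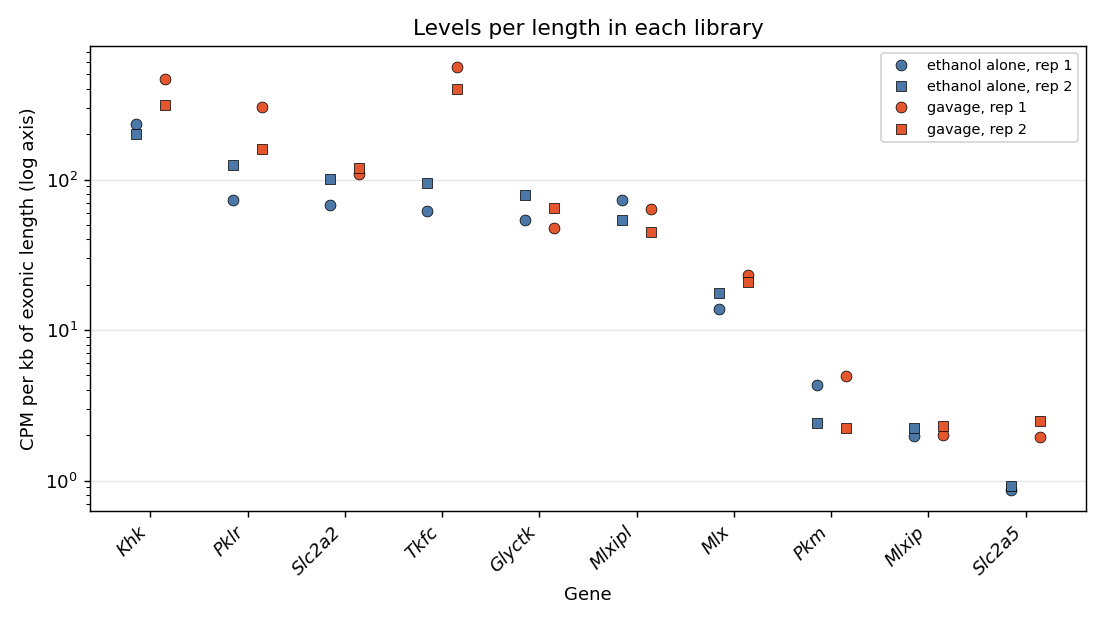
CPM per kb of exonic length (log axis) for the 7 genes and for Mlx, Pkm and Mlxip in each library; circles are replicate 1 and squares replicate 2, blue is ethanol alone and orange is the gavage group. Tkfc lies among Pklr, Slc2a2, Glyctk and Mlxipl with ethanol alone and at the level of Khk after the gavage, and Slc2a5 is the lowest of the 7 genes in both groups.

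Levels of different genes were compared per length, as CPM per kb of the exonic bases of all annotated transcripts. With ethanol alone, Khk was the most abundant of the 7, at 234 and 199.8 CPM per kb, at percentiles 98.5 and 98.4 of tested genes. Pklr (72.8 and 124), Slc2a2 (67.6 and 101), Tkfc (62.2 and 94.7), Glyctk (53.7 and 79.3) and Mlxipl (72.7 and 53.8 CPM per kb) followed, and each neighbouring pair in this order overlapped. Slc2a5 was far below, at 0.872 and 0.923 CPM per kb. After the gavage Tkfc came first in the order, at 558 and 398 CPM per kb, and overlapped with Khk at 467 and 312 CPM per kb. Pklr (305 and 161 CPM per kb) stood below both, and Slc2a2 (109 and 119 CPM per kb) below Pklr. Glyctk (47.4 and 64.8) and Mlxipl (63.3 and 44.5 CPM per kb) overlapped each other below these. Slc2a5, at 1.94 and 2.49 CPM per kb, was still lowest, between percentiles 37.3 and 43.2 of tested genes.

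**Figure D3:**
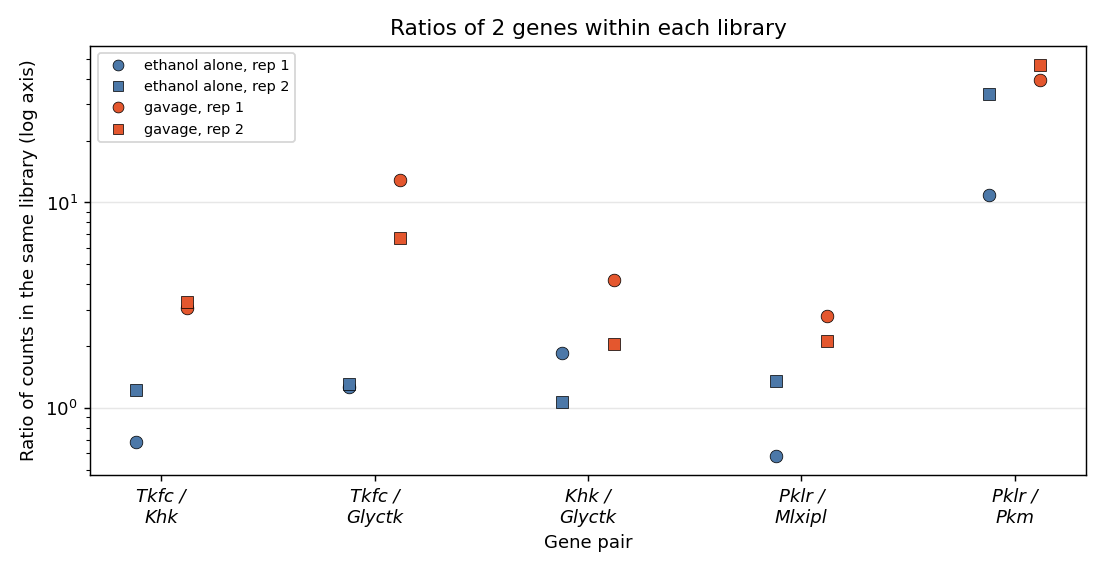
Ratio of the counts of 2 genes in the same library (log axis) for 5 gene pairs; circles are replicate 1 and squares replicate 2, blue is ethanol alone and orange is the gavage group. Tkfc over Glyctk has close replicates with ethanol alone (1.26 and 1.30) and lies at 6.71 and 12.9 after the gavage.

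Ratios of counts within a library do not depend on the scaling between libraries. Tkfc had 0.682 and 1.22 counts for each Khk count with ethanol alone and 3.07 and 3.28 after the gavage. It had 1.26 and 1.30 counts for each Glyctk count with ethanol alone, against 12.9 and 6.71. In both ratios the groups did not overlap. Pklr over Mlxipl was 0.585 and 1.35 with ethanol alone and 2.81 and 2.11 after the gavage, again without overlap. Pklr over Pkm ranged from 10.9 to 33.6 with ethanol alone and from 39.6 to 46.5 after the gavage. Slc2a2 had 131 and 185 counts for each Slc2a5 count with ethanol alone and 95.3 and 80.6 after the gavage. The genes were chosen with the difference between the groups in view, and no share over other gene pairs is given. Nothing is therefore read from the lack of overlap in these ratios.

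Of 24 other genes of fructose, polyol and triose handling, all were tested and none was called by edgeR's quasi-likelihood test, with 14 lying higher and 10 lower (median log2 fold change 0.10). Before adjustment, p was under 0.05 for 2 that lay higher and 6 that lay lower (8.91% and 9.85% of all tested genes), 8 in all. That number moved in both directions when single libraries were left out, and such fits leave 1 library in a group. DESeq2 called 2 higher (3.94% of all tested genes), among them Gpi1, and 4 lower (4.9%), among them Akr1a1, Slc2a8 and Sord. Gpi1, glucose phosphate isomerase, had 113 and 122 CPM with ethanol alone and 853 and 277 CPM after the gavage. Sord, sorbitol dehydrogenase, which makes fructose from sorbitol, had 1187 and 963 CPM with ethanol alone and 679 and 700.1 CPM after the gavage. Aldoc, an aldolase of other tissues, had 12 and 6.71 CPM with ethanol alone and 4.97 and 4.92 CPM after the gavage. The median of this list turned to -0.04 without replicate 1 of ethanol alone and to -0.13 without replicate 1 of the gavage group.

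Other transporters of the Slc2a family lay in both directions. Of 10, 8 were tested and none was called, with 3 higher and 5 lower (median -0.22). Slc2a9, a urate transporter and the most abundant of them, had 44.2 and 50.1 CPM with ethanol alone and 29.5 and 42.2 CPM after the gavage. Slc2a8, a transporter of internal membranes, had 19.1 and 17.0 against 9.11 and 10.3 CPM, a log2 fold change of -0.90 (SE 0.19) with an adjusted p of 0.147 in edgeR, and DESeq2 called it lower. Slc2a4, the insulin-responsive transporter of muscle and fat, was singled out after its values were seen. It had 36.2 CPM in replicate 1 of the gavage group and 0.664 to 3.77 CPM in the others. The muscle markers summed to 609 CPM in that library and to 318 CPM in replicate 1 of ethanol alone, where Slc2a4 had 3.77 CPM. The part of muscle or fat in the level of Slc2a4 was not tested. The median of these transporters turned to 0.22 when the second library of ethanol alone was omitted.

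Among partners and regulators of ChREBP, 18 of 19 listed symbols were tested and none was called, with 10 higher and 8 lower (median 0.10) and an unadjusted p under 0.05 for 1 higher and 1 lower (8.91% and 9.85% of all tested genes). Leaving out each library in turn gave 0 to 6 such genes. DESeq2 called 0. Mlx, the obligate partner of ChREBP, had 27.4 and 35.0 CPM with ethanol alone and 46.7 and 41.9 CPM after the gavage, a log2 fold change of 0.51 (SE 0.19, edgeR adjusted p = 0.256). Its groups did not overlap, whereas Mlxip, the paralogue of ChREBP also called MondoA, had 16.4 and 18.7 against 16.7 and 19.1 CPM. Hcfc1, a coactivator, had 38.9 and 59.6 against 64.5 and 81.6 CPM. Hnf4a, a hepatocyte nuclear receptor and the most abundant of the list, had 872 and 1069 against 859 and 754 CPM. Usf2, an E-box binding factor, had 54.0 and 44.0 against 33.1 and 32.4 CPM, and Nr1h3, the liver X receptor alpha, 119 and 96.2 against 72.7 and 92.9 CPM. The medians of this list turned to -0.03 without replicate 1 of ethanol alone and to -0.06 without replicate 2 of the gavage group.

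**Figure D4:**
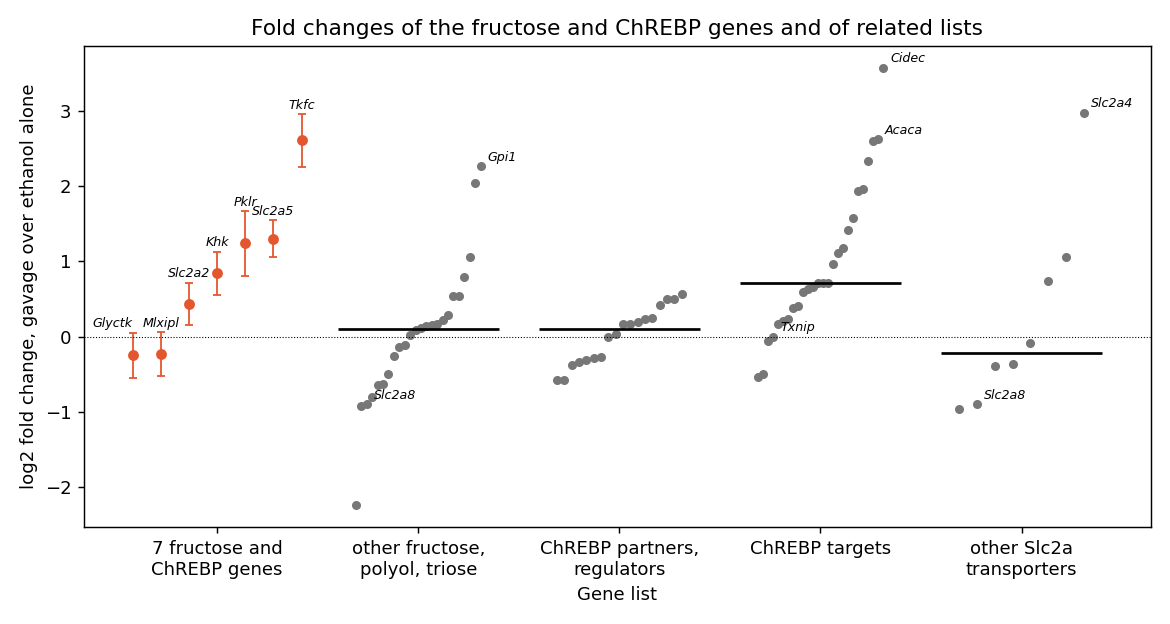
Log2 fold change of gavage over ethanol alone for the 7 fructose and ChREBP genes (orange, bars are SE) and for the tested genes of 4 related lists (grey, 1 point per gene, black line the median of the list). Tkfc is highest of the 7 genes at 2.61, and the ChREBP targets have a median of 0.71 with Txnip at 0.

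Genes known as ChREBP targets lay mostly higher after the gavage. This list, like the others, was chosen with earlier results of these data known, so its counts are a description only. With Pklr and the other 6 genes left out, all 26 were tested, 22 lay higher (51.7% of all tested genes did) and the median log2 fold change was 0.71. The groups lay apart upward for 16 (27.5% of all tested genes) and downward for 1 (27.2%). edgeR's quasi-likelihood test called none, while before adjustment p was under 0.05 for 13 higher and 0 lower (8.91% and 9.85% of all tested genes). The 13 became 6 without replicate 1 of ethanol alone, 8 without replicate 2 of ethanol alone or replicate 1 of the gavage group, and 12 without replicate 2 of the gavage group, either direction counted. Over all tested genes, 2497 became 1792, 3607, 1160 and 1541 without replicate 1 and replicate 2 of ethanol alone and replicate 1 and replicate 2 of the gavage group. DESeq2 called 8 higher, Acaca, Bhlhe40, Cidec, Klf10, Me1, Mttp, Slc37a4 and Thrsp (3.94% of all tested genes). Several are also targets of other lipid and clock regulators. Cidec, a lipid droplet protein, had 3.66 and 0.529 CPM with ethanol alone and 15.7 and 33.9 CPM after the gavage. Acaca, acetyl-CoA carboxylase, had 52.5 and 66.1 against 573 and 158 CPM. Replicate 1 of the gavage group was the higher library for Acaca, as it was for Pklr, Khk and Tkfc, while Cidec and Slc2a5 were higher in replicate 2. Scd1, the most abundant target, overlapped between groups, and its log2 fold change was 1.11 with all libraries and -0.93 without replicate 1 of the gavage group. Txnip, the thioredoxin-interacting protein widely used as a ChREBP readout, had 200.4 and 110.1 CPM with ethanol alone and 189 and 121 CPM after the gavage. Its groups overlapped, with a log2 fold change of 0.00 (SE 0.38). Taldo1, transaldolase, had 109 and 75.3 against 69.0 and 61.4 CPM and was the only target whose libraries lay wholly lower. Without replicate 1 of the gavage group 18 targets lay higher and 8 lower, with a median of 0.56.

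The 7 genes did not form 1 pattern across the 4 libraries. The genes most like each were found by the distance between log2 CPM profiles centred on each gene, over 4 libraries and 11699 genes of at least 1 CPM. For Tkfc these were Plcxd1 (2.01 and 3.14 against 20.4 and 12.4 CPM) and Lrrc28 (20.6 and 25.7 against 171 and 130.4 CPM). Pklr was nearest to Sorl1 (4.21 and 7.90 against 18.0 and 9.30 CPM) and Vsig10l, and Khk to Orm1 (556 and 441 against 1057 and 756 CPM) and Ccne2. Orm1 has near-identical copies whose reads may be split. Slc2a5 was nearest to Jam2 (22.0 and 24.3 against 50.7 and 62.5 CPM) and Mmp28, and Slc2a2 to Taok1 and Sec23ip. The overlapping pair had other neighbours, Ddx58 and Pik3ap1 for Glyctk and Mxra7 and Taf8 for Mlxipl. With 4 libraries and so many genes, close profiles are to be found for nearly any gene, so these names are a description only. Distances to these neighbours ran from 0.0098 to 0.23 log2 units. Among the 7 genes themselves, the nearest pair was Glyctk and Slc2a2, 0.74 log2 units apart, and Tkfc was farthest from Mlxipl, at 2.95. The neighbours were the closest of 11699 genes, whereas 7 genes offer few pairs. Smaller distances to the neighbours were thus bound to arise, and nothing is read from that gap.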

How the data were processed

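The deposited file holds whole-number counts per gene symbol for 4 liver libraries, not normalised. Per the submitters' processing notes, the authors used GRCm38, HTSeq, STAR 2.6.0a, edgeR and bcl2fastq 2.20.0.422, with no role stated. Annotation, strand setting and multi-mapping rule: not given in the sources used here. Libraries were grouped by title, since the treatment protocol reads alike for all. The analysis ran edgeR 4.0.16 (R 4.3.3): filterByExpr by group (minimum count 10, minimum total 15), TMM factors of 0.951 to 1.05, and the 2-sided quasi-likelihood test without covariate, adjusted by Benjamini-Hochberg over all tested genes at 0.05. The SE is the absolute log2 fold change over the square root of F. The common coefficient of variation was 0.311. Replicates differed beyond sampling noise (chi-square per degree of freedom 155 and 166). DESeq2 1.42.0 was an alternative. A floor of 3 counts is 0.0955 to 0.11 CPM. GENCODE M21 (GRCm38) gave coordinates and exonic lengths, matched by symbol for 98.5% of tested genes. The genes and lists were chosen with earlier results of these data known. Named from each list were the gene with the highest mean CPM and up to 2 genes each way with the largest change among those of at least 1 CPM whose groups did not overlap, plus Mlx, Mlxip, Txnip and Pkm; the 2 nearest profiles were named for each of the 7 genes. Certain members of these lists are left out of the text. Markers of the cholangiocyte, kidney tubule and neutrophil lists summed to 76.6 to 104, 0.0661 to 0.732 and 2.21 to 14.6 CPM.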

Additional observations from a re-analysis of the deposited data

How the results depend on the processing

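The count of genes called was 0 with DESeq2 size factors, library totals, no filter or a filter requiring 1 CPM in 2 libraries. It was 1177 with DESeq2, and leaving out each library in turn gave 0 to 31 (12 without replicate 2 of ethanol alone, 31 without replicate 2 of the gavage group). DESeq2 called 6 genes of the fructose list, 8 ChREBP targets and 1 Slc2a transporter. With the replicate number as a block, 410 genes (3.08%) were called, among them 1 of the fructose list and 1 ChREBP target (Klf10). The labels do not say that the numbers pair the libraries. Deviations of same-numbered libraries correlated across genes with r = 0.591, a hint from 2 pairs only. The cause of these differences was not tested. Of 70 values of the 7 genes' log2 fold changes under 10 alternatives, 68 moved by less than the spread between replicates, and 1 of these, Glyctk without replicate 2 of ethanol alone (0.01), changed sign. The other 2 were Khk at 0.52 without replicate 1 and Slc2a5 at 1.10 without replicate 2 of the gavage group. Leaving out 1 library can hardly move a value by more than the spread between replicates. The other settings refit the same libraries, so these counts say little about stability. Pklr counted among the 68 although it went from 1.24 to 0.71 without replicate 1 of the gavage group. Where 1 library of a group was left, it was assumed to vary like the other group. Library totals moved the median of all genes from 0.02 to 0.10 on the log2 scale.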
